A study of Mus musculus with 8 samples.

Results

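The RGS genes encode regulators of G-protein signalling. The 8 members described here, Rgs1, Rgs2, Rgs3, Rgs10, Rgs13, Rgs14, Rgs16 and Rgs19, were taken by symbol from the 24259 gene symbols of the count table. They were selected on their CPM (counts per 1000000, after TMM scaling of library sizes) in these same libraries, which are compared here, so their levels and differences between groups are given as a description with no test. They were measured in NP-binding, IgD-low, B220+ B cells, a stage before the germinal center (GC), sorted from lymph nodes of mice labelled C57BL/6 on day 3 after activation with NP-OVA. NP is a small hapten and OVA is ovalbumin, the antigen seen by OT-II T cells, whose transgenic receptor recognises an ovalbumin peptide.

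HET denotes B cells helped by CD4-Cre x Bcl6 fl/+ OT-II T cells, in which Cre driven by the Cd4 gene removes 1 floxed allele of Bcl6, the transcription factor that follicular helper T cells depend on. WT denotes B cells whose help came from CD4-Cre OT-II T cells, so the helper T cells of both groups carried Cre. All recipients were CD45.1 Sap-/- mice, in which host T cells cannot sustain germinal centers, and all received NP-OVA with LPS in alum under the skin. Each group has 4 libraries of about 200 cells sorted from a pool of the recipients of that group. The replicates are therefore technical, p-values measure only the spread between sorts and libraries of a pool, and an effect of the group cannot be told apart from one of its pool. Bcl6 was deleted in the helpers and not in the B cells that were sequenced, which leaves no targeted gene with which to check the labels.

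RGS proteins bind the active, GTP-bound alpha subunit of a heterotrimeric G protein and speed up the hydrolysis of its GTP, which ends the signal from a G-protein-coupled receptor. In B cells these receptors include the chemokine receptors CXCR4, CXCR5 and CCR7, the oxysterol receptor GPR183 (EBI2) and the S1P receptors, which position a cell in the follicle or at its border. Rgs1 and Rgs13 are known to limit chemokine responses of B cells, and Rgs13 is known as a gene of germinal center B cells. Rgs1, Rgs2 and Rgs16 are also known as genes that are quickly induced when lymphocytes are activated.

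Total counts ranged from 6652386 to 12559189 per library, and 3 counts corresponded to 0.241 to 0.455 CPM. Of all genes, 12744 had enough counts to be tested, and 7 of the 8 members were among them, all but Rgs16. By edgeR's quasi-likelihood test with an adjusted p under 0.05, 0 of the 7 tested members were called, against 0.0235% of all genes tested. DESeq2 also called 0, against 0.687% of the genes it tested. At an unadjusted p under 0.05, edgeR counted 2 members (both lower in HET), against 7.22% of all genes. The 4 HET and the 4 WT libraries did not overlap for 1 of the 7, against 4.61% of all genes. Since the members were chosen on this contrast, nothing is read from these counts. The cells carried the B cell transcripts that their label implies, with Cd79a, a signalling chain of the B cell receptor, at 3209 to 3999 CPM.

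Rgs2, Rgs13 and Rgs1 lie next to each other on the minus strand of chromosome 1 (GRCm38, GENCODE M21). Rgs2 spans 143999338 to 144004161, Rgs13 spans 144138654 to 144177372 and Rgs1 spans 144242296 to 144249242. The stretch from Rgs2 to Rgs1 is 250 kb long and holds 3 protein-coding genes in all, these same 3. Rgs21 and Rgs18 follow on the same strand, and the 5 genes together span 776 kb. Rgs16 is also on chromosome 1 but on the plus strand, from 153740349 to 153745468. The other members are on other chromosomes, with Rgs14 at 55369732 to 55384687 of chromosome 13, Rgs19 at 181688419 to 181693977 of chromosome 2, Rgs3 at 62559847 to 62704001 of chromosome 4 and Rgs10 at 128373621 to 128418758 of chromosome 7.

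RefSeq promoter windows of 250 bases before the annotated start (GRCm38.p6) were found for 6 of the 8 members, 9 windows in all. Rgs1 and Rgs14 had no entry. The windows of the neighbours Rgs2 and Rgs13 are shown because these genes had opposite directions between the groups and very unequal levels. Both are on the minus strand and are written 5′ to 3′ toward the start. Capitals mark the short cAMP response element, TGACG or its reverse complement CGTCA.
Rgs2, chr1:144004150-144004399: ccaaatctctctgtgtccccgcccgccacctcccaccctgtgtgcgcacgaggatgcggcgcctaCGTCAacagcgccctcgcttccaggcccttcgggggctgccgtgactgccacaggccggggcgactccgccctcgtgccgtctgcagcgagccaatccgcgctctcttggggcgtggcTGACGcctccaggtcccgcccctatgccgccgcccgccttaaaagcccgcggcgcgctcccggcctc
Rgs13, chr1:144177373-144177622: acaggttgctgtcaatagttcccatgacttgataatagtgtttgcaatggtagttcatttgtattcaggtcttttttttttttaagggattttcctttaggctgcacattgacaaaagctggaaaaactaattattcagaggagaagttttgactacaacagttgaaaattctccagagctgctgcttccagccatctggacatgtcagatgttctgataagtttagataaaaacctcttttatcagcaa

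The Rgs2 window had a GC content of 72.4% and 30 CpG dinucleotides, and its short elements began 185 and 67 bases before the start. The Rgs13 window had a GC content of 36.0% and 0 CpG dinucleotides. The median GC content over 32851 mouse promoter windows of this length was 52.4%. The short element occurred in 17.8% of all windows and, among the 9 windows of members, only in that of Rgs2. The TATA box (TATAAA) was in 2 of the 9, both of Rgs3, and in 12.4% of all windows. The other motifs searched, on both strands, were found in 0 of the 9 windows. They were the full cAMP response element TGACGTCA (1.55% of all windows), which contains the short element, the AP-1 motif TGACTCA or TGAGTCA (4.46%), the E-box CACGTG (6.02%), the EGR motif GCGTGGGCG (0.536%), the CArG box (1.47%), the octamer ATGCAAAT (1.6%) and the GAS element TTCNNNGAA (7.02%). A match or its absence describes only the letters of the window.

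Among the members that are known to restrain chemokine receptors, Rgs1 was lower in HET and Rgs13 was higher. Rgs1 was measured at 13.9, 9.72, 9.14 and 7.13 CPM in HET replicates 1 to 4 and at 26.0, 14.5, 19.1 and 20.5 CPM in WT replicates 1 to 4. Every HET library lay below every WT library, and the gap was narrow, between HET replicate 1 and WT replicate 2. The HET libraries averaged 9.97 ± 2.85 CPM and the WT libraries 20.0 ± 4.74 CPM (SD, n = 4 each), for a log2 fold change of -0.999 ± 0.31 (SE, edgeR). Without 1 library at a time the log2 fold change of Rgs1 lay between -1.20, without HET replicate 1, and -0.85, without WT replicate 1. These levels rested on 47 to 173 counts per HET library and 143 to 274 counts per WT library.

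Rgs13 was measured at 9.49, 12.8, 3.90 and 8.49 CPM in the HET libraries and at 2.85, 4.17, 1.64 and 7.41 CPM in the WT libraries. Of the HET libraries, 3 lay above every WT library, and HET replicate 3 lay among them. The HET libraries averaged 8.67 ± 3.69 CPM and the WT libraries 4.02 ± 2.49 CPM (SD, n = 4 each), for a log2 fold change of 1.11 ± 0.53 (SE). The value ranged from 0.86 without WT replicate 3 to 1.58 without WT replicate 4, the WT library in which Rgs13 was highest. The counts were low, 26 to 118 per HET library and 13 to 71 per WT library.

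Rgs1 and Rgs13 differed in opposite directions, and the ratio of their counts, chosen after the values were seen, also separated the groups. There were 0.682, 1.32, 0.426 and 1.19 Rgs13 counts per Rgs1 count in HET replicates 1 to 4 and 0.1095, 0.287, 0.0861 and 0.362 in WT replicates 1 to 4. All HET ratios lay above all WT ratios, with HET replicate 3 and WT replicate 4 nearest to each other. The ratio is taken within a library and so does not depend on how library sizes were scaled.

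Rgs2 prefers the alpha subunit of the Gq class, which activates phospholipase C beta. It was measured at 108, 128, 129 and 96.9 CPM in HET replicates 1 to 4 and at 190.0, 90.7, 187 and 153 CPM in WT replicates 1 to 4. WT replicates 1, 3 and 4 were above all HET libraries, while WT replicate 2 was below all of them. The HET libraries averaged 115 ± 15.6 CPM and the WT libraries 155 ± 46.2 CPM (SD, n = 4 each), for a log2 fold change of -0.43 ± 0.20 (SE). Without WT replicate 2 it was -0.61, and without WT replicate 3 it was -0.32. The WT libraries were spread more widely than the HET libraries, with a coefficient of variation of 29.8% against 13.5%.

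Rgs3 acts on Gi and Gq alpha subunits and is made in several isoforms, with 8 protein-coding transcripts of 17 in the annotation. It was measured at 10.6, 9.07, 3.00 and 3.64 CPM in the HET libraries and at 1.996, 5.38, 0.757 and 2.71 CPM in the WT libraries. HET replicates 1 and 2 stood above all others, whereas HET replicates 3 and 4 lay within the WT range. The HET libraries averaged 6.58 ± 3.83 CPM and the WT libraries 2.71 ± 1.96 CPM (SD, n = 4 each), for a log2 fold change of 1.28 ± 0.64 (SE). Leaving out HET replicate 1 gave 0.95, and leaving out WT replicate 2 gave 1.84. WT replicate 3 held 6 counts of Rgs3 and HET replicate 1 held 132, so this gene was near the limit of detection in some libraries. Counts per gene do not tell which isoform was present.

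Rgs10 and Rgs14 both act on Gi alpha subunits, and Rgs14 also binds Ras family proteins and inactive Gi alpha. Rgs10 was measured at 13.0, 13.5, 8.84 and 7.28 CPM in the HET libraries and at 9.69, 21.1, 5.55 and 18.9 CPM in the WT libraries. The groups overlapped, since WT replicates 2 and 4 were the highest of all and WT replicate 3 was the lowest. The log2 fold change of Rgs10 was -0.37 ± 0.42 (SE), and it was -0.63 without WT replicate 3 and -0.09 without WT replicate 2. A second gene on the same strand, Gm15503, overlaps Rgs10, and reads in the shared stretch could be assigned to either or neither. On the opposite strand, Gm11209 overlaps Rgs3 and Gm28513 overlaps Rgs16. The strand setting of the counting is not given, so these overlaps could matter too. Rgs14 was measured at 83.4, 49.5, 62.8 and 61.3 CPM in the HET libraries and at 57.5, 65.6, 85.1 and 86.5 CPM in the WT libraries. The groups overlapped almost fully, and HET replicate 1 was nearly as high as the highest WT libraries. The log2 fold change of Rgs14 was -0.19 ± 0.19 (SE).

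Rgs19, also called GAIP, acts on Gi alpha subunits and was the most abundant member and had the smallest pooled SD of log2 CPM within groups, 0.16. It was measured at 149, 172, 179 and 129.5 CPM in the HET libraries and at 169.5, 160.0, 179 and 170.5 CPM in the WT libraries. The WT libraries lay within the range of the HET libraries. The HET libraries averaged 157 ± 22.7 CPM and the WT libraries 169.8 ± 7.90 CPM (SD, n = 4 each), for a log2 fold change of -0.11 ± 0.12 (SE).

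Rgs16, which acts on Gi and Gq alpha subunits, was close to absent. There were 9 counts in HET replicate 1 and 2 counts in WT replicate 3, and 0 in the other 6 libraries. A count of 0 allows up to 3 counts, or 0.285 to 0.455 CPM in those 6 libraries, so Rgs16 was not detectable at this depth there, and no fold change is given. Intervals and floors of this kind cover counting error only, since the libraries carry no molecular identifiers.

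**Figure D1:**
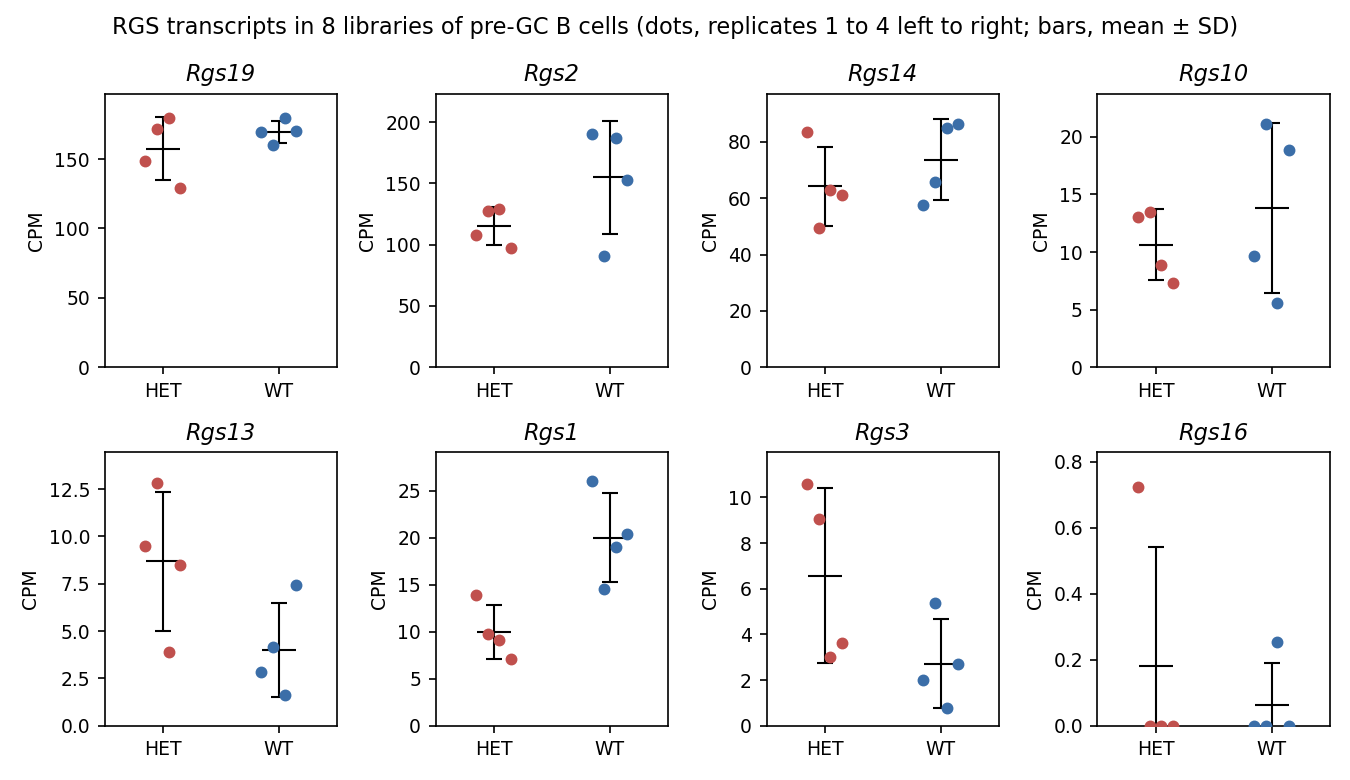
CPM of the 8 RGS genes on linear axes that start at 0, with HET libraries in red and WT libraries in blue, replicates 1 to 4 from left to right in each group, and bars for the mean ± SD (n = 4). The groups are apart for Rgs1, 3 of 4 HET libraries lie above all WT libraries for Rgs13, and Rgs16 was detected in 1 library of each group.

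**Figure D2:**
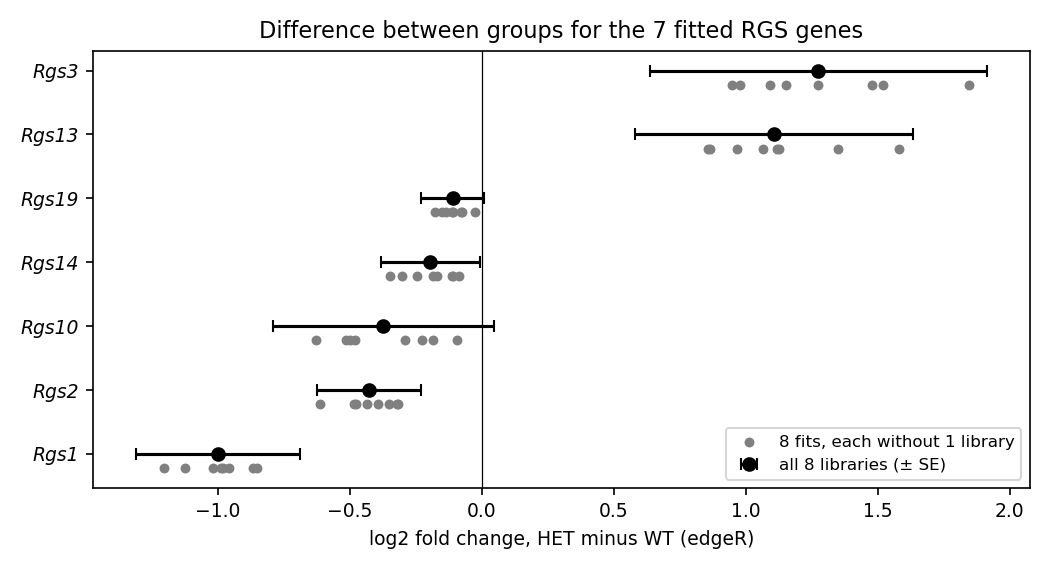
Log2 fold change (HET minus WT) of the 7 RGS genes with enough counts, from the edgeR fit over all libraries (black, ± SE) and from the 8 fits that each leave out 1 library (grey). Every fit kept the direction of each gene, with Rgs3 and Rgs13 right of 0 and the other 5 left of it, and Rgs3 and Rgs13 had the widest spread.

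Of the 7 tested members 2 were higher and 5 lower in HET, with a median log2 fold change of -0.19. Over all 12744 genes, 6356 were higher and 6388 lower, the median was -0.00, and the middle 50% lay between -0.22 and 0.23. The summed CPM of all 8 members was 373 ± 39.4 over the HET and 439 ± 52.7 over the WT libraries (SD, n = 4 each). HET replicate 4 had the lowest sum, 314 CPM, and WT replicate 2 had the lowest sum of its group, 362 CPM, below 3 of the HET libraries. In a bulk sample, fewer cells expressing a gene and less RNA of it per cell cannot be told apart.

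Levels between genes were compared per length, as CPM per kb of the longest coding transcript, averaged over all 8 libraries. The order was Rgs19 with 108, Rgs2 with 44.8, Rgs14 with 29.3, Rgs10 with 13.9, Rgs13 with 4.11, Rgs1 with 3.90, Rgs3 with 0.989 and Rgs16 with 0.0522 CPM per kb. Each gene exceeded the next one in 8 of 8 libraries, with the exception of Rgs13 and Rgs1. By this length, Rgs13 exceeded Rgs1 in 4 of 8 libraries, which were the 4 HET libraries, and Rgs1 exceeded Rgs13 in the 4 WT libraries. The pooled order of this pair therefore held in HET and not in WT. In HET, Rgs13 averaged 5.61 and Rgs1 2.60 CPM per kb, and in WT, Rgs13 averaged 2.60 and Rgs1 5.21 CPM per kb. Among neighbours in the order, only Rgs19 and Rgs2 had ranges over the 8 libraries that did not overlap. The pooled order was the same per kb of the union of exons, but by that length Rgs13 exceeded Rgs1 in some WT libraries too. By the authors' TPM, whose lengths follow the genomic span of a gene, the pooled order differed. Rgs2 (148 TPM) was above Rgs19 (115 TPM), and Rgs1 (11.0 TPM) was above Rgs10 (1.95 TPM) and Rgs13 (0.490 TPM). In TPM, Rgs1 exceeded Rgs13 in every library of both groups. The swap of this pair between the groups thus depends on the lengths used. Among all genes tested, the mean CPM of Rgs19 exceeded that of 92.9% of genes, Rgs2 90.9%, Rgs14 79.97%, Rgs1 41.9%, Rgs10 37.6%, Rgs13 25.1% and Rgs3 19.9%.

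Rgs19, Rgs2 and Rgs14 together made up 83.8% to 94.5% of the RGS transcripts in every library, as shares of the summed CPM per kb of the 8 genes. Rgs19 alone held 54.3% ± 3.47 over the HET and 51.4% ± 2.31 over the WT libraries (SD, n = 4 each). The share of Rgs2 was 19.9% ± 1.24 over the HET and 23.2% ± 5.99 over the WT libraries (SD, n = 4 each). The difference between the groups for Rgs1 and Rgs13 concerned a small part of the pool. The share of Rgs13 was 2.96% ± 1.21 over the HET and 1.19% ± 0.696 over the WT libraries (SD, n = 4 each), and that of Rgs1 was 1.35% ± 0.328 over the HET and 2.37% ± 0.501 over the WT libraries (SD, n = 4 each).

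**Figure D3:**
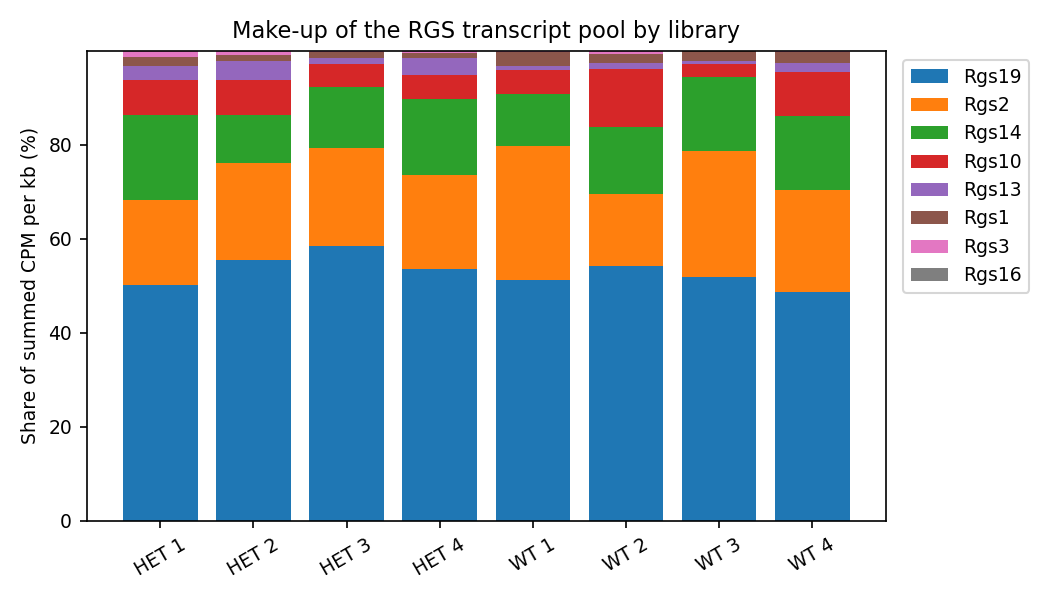
Share of each RGS gene, in percent of the summed CPM per kb of the 8 genes, stacked to 100% for each of the 4 HET and 4 WT libraries. Rgs19 takes from 48.6% to 58.3% of the pool in every library, and Rgs1, Rgs3, Rgs13 and Rgs16 form the thin bands at the top.

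The members also differed in how stable they were between the repeats of a group. Counting error alone would give Rgs19 a coefficient of variation of 2.77% in HET and 2.50% in WT, and 14.4% and 4.65% were measured. For Rgs14 it was 21.97% in HET and 19.5% in WT, several times the counting error of about 4.22% and 3.81%. Rgs13 varied by 42.5% in HET and 61.9% in WT, and Rgs3 by 58.2% and 72.1%, against counting errors of at most 19.4%. The abundant Rgs2 varied by 13.5% in HET and 29.8% in WT, against counting errors of 3.23% and 2.62%. The spread between repeats of about 200 cells was larger than counting error for every tested member in both groups. Without molecular identifiers this error is that of reads and not of molecules.

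Other genes of the family gave no call. Of 13 further RGS genes searched, 8 were in the count table and 3 were tested, of which edgeR and DESeq2 called 0 and 0 passed an unadjusted p under 0.05. Rgs12, a relative of Rgs10 and Rgs14, had 3.38, 2.59, 1.95 and 0.303 CPM in HET and 1.33, 1.83, 0 and 0.104 CPM in WT (log2 fold change 1.31 ± 1.07 SE, edgeR adjusted p = 0.85). Rgs18, known from platelets and myeloid cells and the far end of the chromosome 1 cluster, reached 8.25 CPM in WT replicate 4 and lay between 0 and 3.00 CPM elsewhere (log2 fold change -1.06 ± 1.12 SE, edgeR adjusted p = 0.89). Platelet markers were nearly absent, with 1 of 6 in the table (Itga2b) and counts in 1 library of each group, neither of them WT replicate 4. Myeloid markers of WT replicate 4 went in both directions. Adgre1, Cd14 and Xcr1 were highest there, at 11.3, 4.38 and 3.55 CPM against at most 3.35, 1.35 and 3.00 CPM elsewhere. Lyz2 was at 0 there, and Csf1r (8.14 CPM) and Cd68 (5.11 CPM) were the lowest of the WT libraries. The summed myeloid markers of that library, 306 CPM, lay within the range of the other libraries. Of this sum 224 CPM was Cst3, which lay at 221 to 280 CPM in all libraries. The part of platelets or myeloid cells in the Rgs18 level was not tested. Rgs11 was found in HET replicates 1 and 4 and WT replicates 1 and 4, at 1.36 to 3.14 CPM, and at 0 in the other 4 libraries (log2 fold change -0.69 ± 1.41 SE, edgeR adjusted p = 0.96). Rgs6 had 5 counts in HET replicate 2, Rgs20 had 8 counts in HET replicate 3, and Rgs7 had 3 counts in HET replicate 3 and 4 counts in WT replicate 3. Rgs5 and Rgs9 had a single count each.

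The wider pathway was described by 6 lists, in which edgeR and DESeq2 called 0 genes and the smallest edgeR adjusted p was 0.53, for Pik3cg. Of all 12744 genes tested, 7.22% had an unadjusted p under 0.05 by edgeR, 426 higher and 494 lower in HET. No direction is read from the few genes of each list that are counted at this p. Proteins that carry an RGS-homology domain without being classic RGS proteins, such as the receptor kinases, had 13 tested genes, 4 higher and 9 lower in HET, with a median log2 fold change of -0.25. At an unadjusted p under 0.05, 0 were higher and 2 were lower. Grk6, a kinase that desensitises receptors, was measured at 146, 144, 152 and 123 CPM in HET and 163, 166, 169 and 187 CPM in WT, without overlap (log2 fold change -0.28 ± 0.11 SE, adjusted p = 0.60). Arhgef1 had a mean of 411 ± 36.2 CPM over the HET repeats and 479.8 ± 34.998 CPM over the WT repeats (SD, n = 4 each; log2 fold change -0.22 ± 0.09 SE, edgeR adjusted p = 0.62). Akap10, an anchor of protein kinase A, had a log2 fold change of -0.48 ± 0.25 (SE, edgeR adjusted p = 0.72), and the abundant Grk2 one of 0.05 ± 0.15 (SE, edgeR adjusted p = 0.97).

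The alpha subunits on which RGS proteins act gave no call. Of 9 tested, 4 were higher and 5 lower in HET, with a median log2 fold change of -0.02 and 0 at an unadjusted p under 0.05. Gnas (Gs alpha) had a log2 fold change of -0.02 ± 0.09 (SE), Gnai2, a Gi alpha subunit that chemokine receptors use, 0.03 ± 0.13 (SE), and Gna13, the partner of S1pr2, 0.08 ± 0.12 (SE), with edgeR adjusted p-values of 0.98, 0.98 and 0.93. Gnaq, the Gq alpha subunit that Rgs2 prefers, had a mean of 9.44 ± 1.70 CPM over the HET repeats and 12.6 ± 2.14 CPM over the WT repeats (SD, n = 4 each; log2 fold change -0.41 ± 0.31 SE, edgeR adjusted p = 0.83). Gna15 had a log2 fold change of 0.13 ± 0.39 (SE, edgeR adjusted p = 0.97). Of 10 beta and gamma subunits tested, 6 were higher and 4 lower, with a median of 0.01 and 0 at an unadjusted p under 0.05. The most abundant, Gnb1 and Gng5, had log2 fold changes of 0.12 ± 0.09 and -0.05 ± 0.11 (SE), and the scarce Gnb4 and Gng12 had 1.80 ± 0.86 and -0.54 ± 0.28 (SE), with edgeR adjusted p-values of 0.83, 0.96, 0.71 and 0.73.

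Among 23 tested G-protein-coupled receptors of B cells, 10 were higher and 13 lower in HET, with a median log2 fold change of -0.04, and at an unadjusted p under 0.05 there were 3 higher and 0 lower. S1pr2, which confines germinal center B cells to the follicle, was measured at 14.3, 27.2, 12.4 and 2.43 CPM in HET and at 4.18, 0.711, 0.883 and 0 CPM in WT. HET replicate 4 lay below WT replicate 1, and the other HET libraries lay above all WT libraries (log2 fold change 3.26 ± 1.001 SE, edgeR adjusted p = 0.55). Cxcr5, the receptor for the follicular chemokine CXCL13, had a mean of 331 ± 40.2 CPM over the HET repeats and 274 ± 18.8 CPM over the WT repeats (SD, n = 4 each; log2 fold change 0.27 ± 0.10 SE, edgeR adjusted p = 0.60). Adora2a, an adenosine receptor, averaged 10.5 ± 2.46 CPM in HET and 4.90 ± 2.64 CPM in WT (SD, n = 4; log2 fold change 1.11 ± 0.47 SE, edgeR adjusted p = 0.63). Ccr7, which draws cells to the T zone, had a log2 fold change of -0.05 ± 0.11 (SE, edgeR adjusted p = 0.96).

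Of 7 modulators of receptors and G proteins, such as arrestins and the Ric8 and Gpsm proteins, 5 were higher and 2 lower in HET, with a median log2 fold change of 0.35 and 0 at an unadjusted p under 0.05. Gpsm1 had a log2 fold change of 0.83 ± 0.44, Arrb1 1.14 ± 0.88, Ric8b -0.48 ± 0.40, Ric8a 0.11 ± 0.21 and Gpsm3 -0.05 ± 0.24 (SE), with edgeR adjusted p-values from 0.74 to 0.98. Of 23 effectors tested, 9 were higher and 14 lower, with a median of -0.06, and 1 was higher and 2 were lower at an unadjusted p under 0.05. Pik3cg, the catalytic subunit of the PI3-kinase that beta and gamma subunits activate, averaged 32.2 ± 4.83 CPM in HET and 52.8 ± 14.96 CPM in WT (SD, n = 4; log2 fold change -0.71 ± 0.23 SE, edgeR adjusted p = 0.53). Of the phospholipase C beta genes, Plcb2 was at a log2 fold change of -0.63 ± 0.23 and Plcb3 was at 1.39 ± 0.65 (SE, edgeR adjusted p = 0.58 and 0.69). The abundant Rac2 and Rhoa, small GTPases of cell migration, had log2 fold changes of -0.03 ± 0.08 and -0.12 ± 0.08 (SE, edgeR adjusted p = 0.97 and 0.79), and the 4 HET libraries lay below the 4 WT libraries for Rhoa. Prkar2a, a regulatory subunit of protein kinase A named after its values were seen, had HET libraries above all WT libraries (log2 fold change 0.85 ± 0.42 SE, edgeR adjusted p = 0.71).

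**Figure D4:**
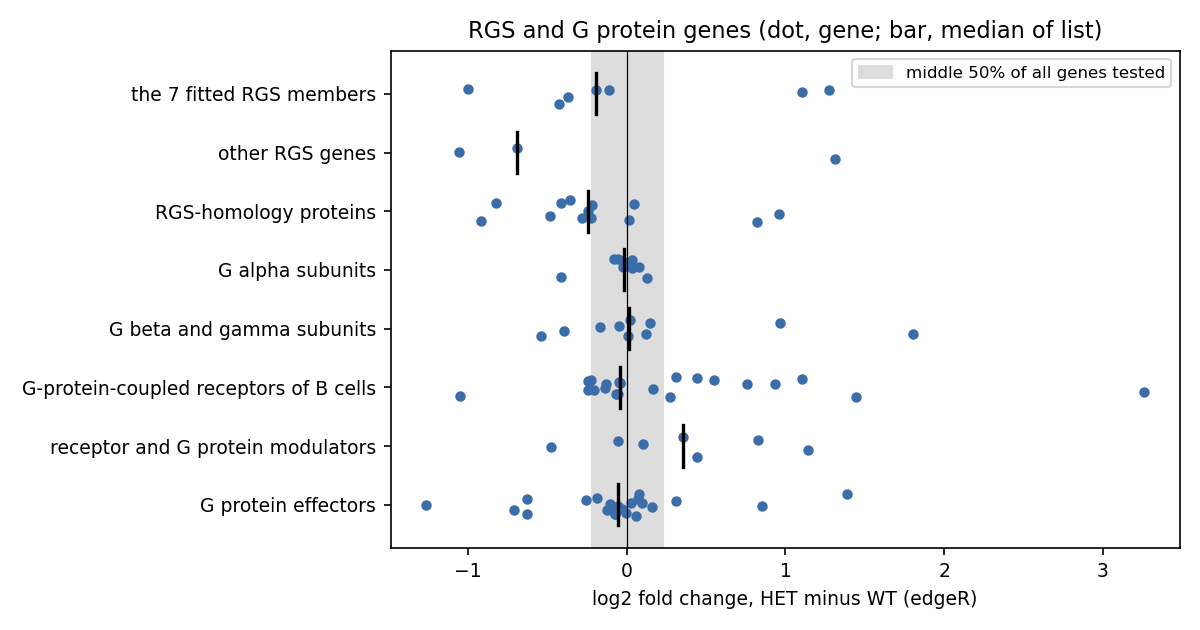
Log2 fold change (HET minus WT, edgeR) of each tested gene of the RGS family and of 6 G protein lists (dots), with the median of each list (black bar) and the middle 50% of all 12744 genes tested (grey, -0.22 to 0.23). Medians lie between -0.69 for the 3 other RGS genes and 0.35 for the 7 modulators, and S1pr2 is the dot at 3.26.

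The genes whose levels followed those of the abundant members most closely across the 8 libraries were sought among 7267 genes whose mean log2 CPM reached 4. They are given as a description, since 8 libraries of 2 pools share depth and composition. For Rgs2 they were Igkv3-12 and Gmcl1 (Pearson r of log2 CPM 0.96 and 0.92), for Rgs14 Pon2 and Dicer1 (0.96 and 0.95) and for Rgs19 Gsdmd and Ddx59 (both 0.97). For Rgs1, which lay just under this level and was added after its values were seen, they were Gm26596 and Gtf3c2 (0.98 and 0.96). The tenth gene in each ranking still had an r between 0.88 and 0.92, so the first pair did not stand apart.

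Markers of other cells and of activation were measured beside the RGS genes, since RGS transcripts also occur in T cells, NK cells and myeloid cells. The summed CPM of 20 T cell markers was 442 to 820 in HET and 275 to 677 in WT, and 18 of the 19 tested markers were higher in HET, 0 of them at an unadjusted p under 0.05 by edgeR or a DESeq2 adjusted p under 0.05. Cd4 was at 0 to 0.758 CPM, while Cd3e reached 25.9 and Cd8b1 123 CPM. The sum of 9 NK cell markers was 63.7 to 236 CPM in HET and 44.5 to 125 CPM in WT, with 8 of 8 tested higher. Of these, 1 had an unadjusted p under 0.05 by edgeR, against 7.22% of all genes. DESeq2 called 1, against 0.687% of the genes it tested. Neither difference passed a two-sided exact permutation test (p = 0.257 and 0.114, adjusted over 8 lists 0.411 and 0.229, where the smallest p that 70 arrangements allow is 0.0286). HET replicates 1 and 2, in which Rgs3 was highest, had the highest sums of NK cell markers, 236 and 219 CPM. HET replicate 3 came next with 177 CPM, but Rgs3 was at 3.00 CPM there. WT replicates 2 and 3 both had 125 CPM, with Rgs3 at 5.38 and 0.757 CPM. Siglech, of the myeloid list, was also highest in HET replicates 1 and 2, at 102 and 91.8 CPM. HET replicate 1 also had a plasmablast marker sum of 2311 CPM against 333 to 670 CPM in the other 7 libraries. Of this sum 1576 CPM was Jchain alone, which reached at most 97.1 CPM elsewhere. The sum of 12 B cell markers was 12261 to 13812 CPM in HET and 14323 to 15559 CPM in WT, and that of 16 immediate early genes 1737 to 1989 CPM in HET and 2347 to 2867 CPM in WT. The ranges of the groups did not overlap for either sum, and both were lower in HET (exact permutation p = 0.0286 for both, adjusted p = 0.114). The lists were chosen with earlier results of these libraries known and the repeats are technical, so these p-values are only a description. Of the immediate early genes edgeR called Fos and Jun, subunits of AP-1, both lower in HET (log2 fold change -1.43 ± 0.15 and -1.004 ± 0.14 SE, adjusted p = 0.0021 and 0.041). The sum of 10 germinal center markers was 304 to 382 CPM in HET and 371 to 419.5 CPM in WT (exact permutation p = 0.0571, adjusted p = 0.152). Of 9 tested myeloid markers, 4 were higher and 5 lower in HET. By edgeR 1 in each direction had an unadjusted p under 0.05, against 7.22% of all genes. DESeq2 called 1, Flt3 (adjusted p = 0.015), against 0.687% of the genes it tested. Flt3 lay at 15.6 to 26.1 CPM in HET and at 5.80 to 12.3 CPM in WT. WT replicate 2, with the least Rgs2, held 399 CPM of the myeloid gene Lyz2, against at most 28.5 CPM elsewhere. Whether other cells, plasmablasts or early gene transcripts had a part in the RGS values was not tested.

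**Figure D5:**
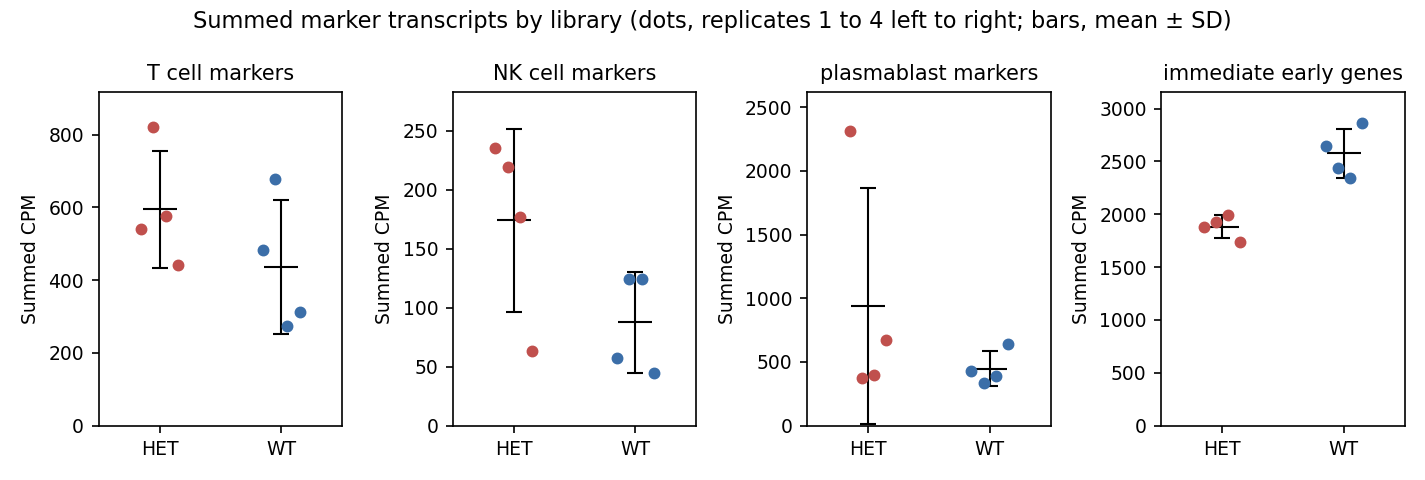
Summed CPM of T cell, NK cell and plasmablast markers and of immediate early genes on linear axes that start at 0, with HET libraries in red, WT libraries in blue, replicates 1 to 4 from left to right and bars for the mean ± SD (n = 4). The T and NK cell sums overlap between the groups, HET replicate 1 stands out in plasmablast markers at 2311 CPM, and the immediate early sums do not overlap.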

How the data were processed

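RNA of about 200 sorted B cells per library was sequenced in 4 HET and 4 WT libraries. The authors made SMART-Seq2 libraries (no molecular identifiers), checked reads with FastQC, aligned them with Hisat2 2.2.1 to GRCm38 (mm10) and counted them over genes by HTSeq-count. Annotation release, strand setting and treatment of reads with several alignments are not given in the sources used here.

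The deposited count table holds whole-number counts for 24259 symbols, and the deposited TPM table holds values for 24232. Over 14539 coding genes, the lengths that the authors' TPM implies correlated with the genomic span of a gene (Spearman 0.956, across genes) more closely than with its exons (0.569). TPM was therefore used only as an alternative, and levels between genes were compared as CPM per kb of the longest coding transcript (GENCODE M21).

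Counts were tested in R 4.3.3 with edgeR 4.0.16 (filterByExpr, TMM, robust quasi-likelihood F-test, Benjamini-Hochberg adjustment, threshold 0.05). The 12744 genes tested held 99.7% of counts. Standard errors are log2 fold changes over the root of the F statistic. In simulated data the edgeR fit recovered most of the genes that had been changed. Those genes were abundant and strongly changed, and the simulated replicates varied less than these libraries. The simulation therefore does not tell whether smaller differences in scarce members would be called. Marker sums were compared by two-sided exact permutation tests over 70 arrangements. Alternatives were DESeq2 1.42.0 (the study's tool), other filters and size factors, limma 3.58.1 (voom, and log2(TPM + 1) or log2(TPM + 0.1)), the replicate number as a block, and each library left out.

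The members and gene lists were chosen with earlier results of these data known. Named were all members, other RGS genes with at least 4 counts in a library, in each pathway list any gene called, otherwise the 3 with the lowest p and the 2 most abundant, and the closest 2 genes to each member whose mean log2 CPM reached 4.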

Additional observations from a re-analysis of the deposited data

Results flagged for a closer look

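Over both groups together, 38 sets of values, each from the 4 libraries of a group, were examined. A library was flagged when its gap to its nearest neighbour exceeded 0.829 of the group's range. 6 were found. Chance gives about 5% of sets of continuous values, but 4 of the 6 sets (Rgs16 and the platelet marker in each group) had a value above 0 in a single library, which meets the criterion by construction, so the number found is not set against that rate. Rgs16 was at 0.724 CPM in HET replicate 1 and at 0 in the other HET libraries, and at 0.252 CPM in WT replicate 3 and at 0 in the other WT libraries. Plasmablast markers summed to 2311 CPM in HET replicate 1, where the rest of HET lay at 377 to 670 CPM, and 1576 CPM of it was Jchain. Myeloid markers summed to 679 CPM in WT replicate 2, where the rest of WT lay at 271 to 306 CPM, and 399 CPM of it was Lyz2, the lysozyme gene of myeloid cells. WT replicate 2 was also the WT library with the least Rgs2 and the most Rgs10 and Rgs3. The platelet marker Itga2b was at 3.14 CPM in HET replicate 1 and 2.64 CPM in WT replicate 2, and at 0 in the others.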

How the results depend on the processing

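The log2 fold changes of the 7 tested members kept their direction and moved by less than 1 SD of the replicates in every alternative that gave a value. Rgs3 had none with a mean of at least 50 counts or a mean TPM of at least 1, nor Rgs13 with the latter. On log2(TPM + 1), where low values are compressed by the pseudocount, both were 0.33. No member, other RGS gene or pathway gene was called in any of the 17 alternatives, and 1 to 3 members had an unadjusted p under 0.05.

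The count of all genes called, 3, was 95 with DESeq2, 38 without a filter, 7 with a mean of at least 50 counts, 6 with voom, 0 on log2(TPM + 1), 1 on log2(TPM + 0.1) and 0 with a mean TPM of at least 1. Without 1 library it was 1 to 6, with 6 without WT replicate 1. With the replicate number as a block it was 0. The deviations of same-numbered libraries correlated at -0.05 to 0.01, so the libraries share only a number.

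The difference in myeloid markers (HET minus WT, -17.3 CPM) ranged from -56.9 to 79.3 CPM without 1 library, and was 79.3 without WT replicate 2 and 11.9 without HET replicate 4. That of platelet markers (0.123 CPM) ranged from -0.66 without HET replicate 1 to 0.784 without WT replicate 2, and was -0.0967 without WT replicate 1, 3 or 4. Their cause was not tested.

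Members with few counts are limited by depth and cell number: 3 counts are 0.241 to 0.455 CPM, and Rgs3 and Rgs13 had as few as 6 and 13 counts in a library. The pools leave no replication of animals.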
